A study of Mus musculus with 12 samples.

Results

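Vascular cells make up a small share of striatal tissue, and 44 genes that mark them or serve the blood-brain barrier were followed here in Huntington's disease knock-in mice with and without the glutamate receptor mGluR5. The genes were taken from a fixed list of brain endothelial, barrier transport, pericyte, smooth muscle and basement membrane genes, and each was read from the probe set that named it alone and had the highest mean signal. Of the 44, 43 were measured this way among 19938 genes, and all 43 passed the filter on low signal in all 12 arrays and stood among the 16721 genes tested. The remaining gene, Ly6c1, an endothelial surface protein of brain capillaries, was named on 2 probe sets only together with another gene and was not analysed here.

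RNA came from striatum of 90-day-old male mice on a mixed 129, CD-1, C57BL/6 and FV background and was read on whole-transcript microarrays, 1 colour per array. The 4 groups of 3 arrays were Q111 mice without mGluR5 (HdhQ111/Q111/mGluR5-/-), Q111 mice with mGluR5 (HdhQ111/Q111/mGluR5+/+), Q20 mice without mGluR5 (HdhQ20/Q20/mGluR5-/-) and Q20 mice with mGluR5 (HdhQ20/Q20/mGluR5+/+). Every mouse thus carried a homozygous Hdh allele named for its repeat, the expanded Q111 or the control Q20, and the mGluR5-/- mice lacked both copies of the receptor's gene. Separate mice per array are not stated in the labels, and p-values therefore reflect the spread of these 12 samples, which may be technical in part. Alleles of the founder strains that differ between groups cannot be told apart from the genotypes.

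The endothelial cells of brain capillaries are sealed by tight and adherens junctions, and transporters in their membranes decide which nutrients and drugs pass. Pericytes lie on the capillary wall within a shared basement membrane, and contractile smooth muscle surrounds the arterioles. Endothelial growth and quiescence are set by receptors for vascular endothelial growth factor, angiopoietin and bone morphogenetic proteins, and mutations of human ENG and ACVRL1 cause hereditary haemorrhagic telangiectasia, a disease of malformed vessels. In bulk tissue, fewer cells of a type and less RNA per cell cannot be told apart.

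The labels and the tissue were checked on the same arrays. Grm5, the gene of mGluR5, lay between 10.93 and 11.17 in the 6 arrays of mice without the receptor and between 11.85 and 12.08 in the 6 arrays of mice with it. Which part of the gene the deletion removed is not given in the sources used here. All 13 measured markers of striatal projection neurons lay above the 75th percentile of mean signal, the lowest at percentile 77.3. The log2 median of an array was 7.05 at the lowest and 7.16 at the highest, and the interquartile range 2.56 and 2.95. With 3 arrays a group, precision is limited by their number.

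In mice without mGluR5, 4 vascular genes were lower with the Q111 allele than with Q20. They were the bone morphogenetic protein receptor gene Acvrl1, its co-receptor gene Eng, the endothelial phosphatase gene Ptprb and the pericyte channel subunit gene Abcc9. Of all genes tested, 0.544% were called lower here (limma, Benjamini-Hochberg adjusted p below 0.05 over all genes). None of the 43 was called higher, where 0.341% of all genes were. The log2 change was negative for 37 of the 43 members, against 56.7% of all genes, with a median of -0.14, against -0.02 for all genes. In mice with mGluR5, no member was called by limma for Q111 against Q20, where 0.574% of all genes were. The log2 change there was negative for 34 of 43, against 54.1% of all genes, with a median of -0.08, against -0.01 for all genes. For scale, the median member signal of an array had a within-group SD of 0.11. Members were read on the same arrays, so the counts of negative changes are not independent results. At an unadjusted p below 0.05, 17 members were lower and 2 higher without mGluR5, where the background was 6.33% lower and 3.12% higher. With mGluR5, 3 were lower and 0 higher, where it was 3.77% and 3.07%. The submitters' own criteria, an unadjusted p below 0.05 and a change of 1.5-fold, called 2 members without mGluR5, Acvrl1 and Slco1a4, among 112 of all genes, and 0 with it, among 97.

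The 2 comparisons of the alleles share no array. Of the 43 members, 30 had a negative change in both, which is 69.8%, against 35.5% of all genes, and 2 had a positive change in both. These 2 were the transporter genes Slc16a1 and Mfsd2a. Averaged over both mGluR5 genotypes, Ptprb, Eng and Acvrl1 were called lower in Q111, where 0.825% of all genes were, and 38 of 43 changes were negative, against 56.6% of all genes. The member median of the comparison with mGluR5 was -0.16 on omission of replicate 3 of Q20 mice with mGluR5. Among the Q111 mice with mGluR5, omission of replicate 2 gave -0.05 and omission of replicate 3 gave -0.14.

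**Figure D1:**
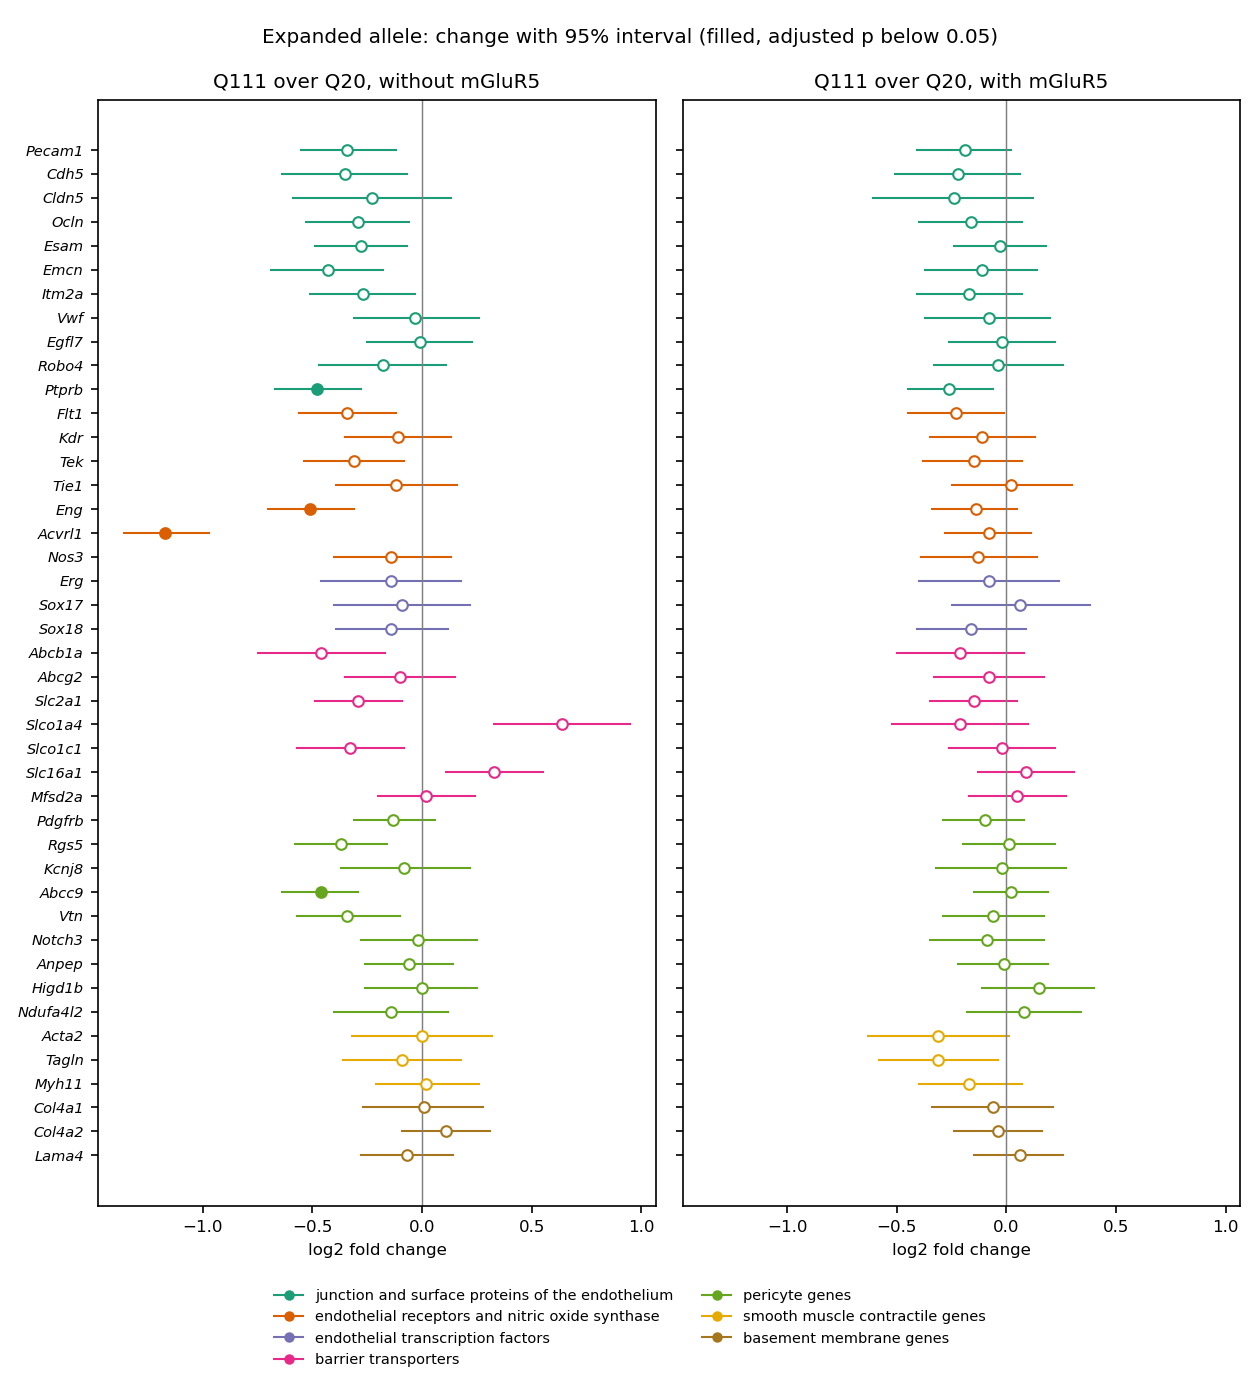
Log2 fold change of Q111 over Q20 for the 43 measured members, in mice without mGluR5 (left) and with it (right), with 95% intervals of the limma fit and a colour for each role. Filled points passed an adjusted p of 0.05, which 4 members did on the left and none on the right.

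Acvrl1 encodes ALK1, an endothelial receptor for the bone morphogenetic proteins BMP9 and BMP10. Its log2 signal was 7.28, 7.24 and 7.46 in Q111 mice without mGluR5, against 8.42, 8.49 and 8.56 in Q20 mice without mGluR5. In mice with mGluR5 it was 8.47, 8.38 and 8.59 with Q111 and 8.54, 8.52 and 8.62 with Q20. The Q111 mice without mGluR5 thus stood below the other 9 arrays with no overlap, and the other groups overlapped with one another. Relative to Q20 without mGluR5 the gene fell by 1.17 ± 0.09 (SE) on the log2 scale, a 2.24-fold difference, with an adjusted p of 4.62e-06. Relative to Q111 with mGluR5 it fell by 1.15 ± 0.09, with an adjusted p of 5.48e-06. These comparisons share the arrays of Q111 mice without mGluR5. The change for Q111 against Q20 with mGluR5 was -0.08 ± 0.09, and the interaction, the difference between both changes for Q111, was -1.08 ± 0.13 with an adjusted p of 0.00114. Acvrl1 was called in the comparison without mGluR5, in the loss of mGluR5 in Q111 mice and in the interaction under every alternative run and every omission of 1 array, with adjusted p of the interaction up to 0.00582 when an array was omitted. It was read from 1 probe set, and a sequence difference under its probes was not tested. None of the 5 tested genes on either side of Acvrl1 on chromosome 15 was called, among them Acvr1b, the gene of a related receptor, and their changes for Q111 without mGluR5 ran from -0.18 to 0.54.

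Eng encodes endoglin, the co-receptor that presents ligand to ALK1. Eng signal was 7.73, 7.72 and 7.87 in Q111 mice without mGluR5, against 8.20, 8.29 and 8.36 in Q20 mice without mGluR5. With mGluR5 it was 7.77, 7.89 and 7.96 in Q111 mice, against 8.11, 8.03 and 7.91 in Q20 mice. Without mGluR5 the allele groups did not overlap, and with mGluR5 they did. Eng fell by 0.51 ± 0.09 with Q111 in mice without mGluR5 (limma adjusted p = 0.0143), a call lost on omission of any of 4 single arrays (adjusted p up to 0.0847), and its change with mGluR5 was -0.14 ± 0.09. The interaction was -0.36 ± 0.13 and did not pass, with a limma adjusted p of 0.675. Averaged over mGluR5 genotypes the fall was 0.33 ± 0.07 (limma adjusted p = 0.0227), and adjusted p rose as far as 0.074 on omission of 1 array. That call was kept without replicate 3 of the Q111 mice without mGluR5, replicate 2 or 3 of the Q111 mice that have it, replicate 1 of the Q20 mice without it or replicate 3 of the Q20 mice that have it, and was lost on omission of any of the other 7 arrays. None of the 5 tested genes on either side of Eng on chromosome 2 was called.

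The promoter windows of the called members that the RefSeq table holds are shown because their genes were called lower for Q111 against Q20 without mGluR5. For Abcc9 the group that stood apart was Q20 mice without mGluR5, with a mean of 7.36. Its mean was 6.89 in Q111 mice without mGluR5, 6.91 in Q111 mice with it and 6.89 in Q20 mice with it. Each window runs from 250 bases before to 50 bases after the annotated start. Eng lies at chr2:32646345-32646644 on the plus strand of GRCm38.p6 and Abcc9 at chr6:142702225-142702524 on the minus strand. Capitals mark the letters GGAAG on either strand, a form of the core recognised by ETS factors such as ERG, whose gene Erg is among the members.
Eng: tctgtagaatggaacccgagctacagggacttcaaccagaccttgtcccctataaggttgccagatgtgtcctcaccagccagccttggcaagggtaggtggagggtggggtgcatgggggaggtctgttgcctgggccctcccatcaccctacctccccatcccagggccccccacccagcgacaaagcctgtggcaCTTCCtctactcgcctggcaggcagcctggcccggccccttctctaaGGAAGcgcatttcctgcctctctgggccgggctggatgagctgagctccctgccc
Abcc9: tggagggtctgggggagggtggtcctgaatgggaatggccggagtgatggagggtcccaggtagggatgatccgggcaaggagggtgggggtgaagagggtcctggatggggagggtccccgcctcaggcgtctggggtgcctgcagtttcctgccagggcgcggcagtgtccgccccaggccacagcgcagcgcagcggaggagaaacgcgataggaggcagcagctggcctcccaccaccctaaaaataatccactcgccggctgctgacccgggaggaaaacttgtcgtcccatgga
The letters GGAAG occurred 2 times in the Eng window and 0 times in the Abcc9 window. Other forms of the core, GGAA followed by a base other than G, also stand in both windows and were neither marked nor counted. Of 37 windows of the 29 members in the table, 64.9% held GGAAG, against 71.4% of all 32851 windows. A match is thus a description and no mark of these genes.

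Among the other receptor genes no change passed the test. Flt1, which encodes VEGF receptor 1, had 7.82, 8.03 and 8.12 in Q111 mice without mGluR5, against 8.33, 8.25 and 8.42 in Q20 mice without mGluR5. With mGluR5 it had 7.83, 7.83 and 8.09 in Q111 mice, against 8.14, 8.21 and 8.09 in Q20 mice. The Q111 arrays lay below the Q20 arrays without mGluR5, while the highest Q111 array equalled the lowest Q20 array with mGluR5 at the rounding used. The changes of Flt1 were -0.34 ± 0.10 and -0.23 ± 0.10, with adjusted p of 0.194 and 0.693 from limma. Tek, the angiopoietin receptor gene, had a change of -0.31 ± 0.11 without mGluR5 and -0.15 ± 0.11 with it. Kdr, which encodes VEGF receptor 2, differed by -0.11 ± 0.11 in both comparisons, Tie1, an orphan partner of Tek, by -0.12 ± 0.13 and 0.02 ± 0.13, and Nos3, the endothelial nitric oxide synthase gene, by -0.14 ± 0.12 and -0.13 ± 0.12. All 7 receptor and synthase genes had negative values without mGluR5, and 6 of 7 with it. The 32 tested genes of a wider list of VEGF, angiopoietin, BMP and Notch signalling, with ligands such as Vegfa and BMP targets such as Id1, held none called by limma in any comparison. At an unadjusted p below 0.05, 3 of the 32 were lower for Q111 without mGluR5, where 6.33% of all genes were, and none with it, where 3.77% were.

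**Figure D2:**
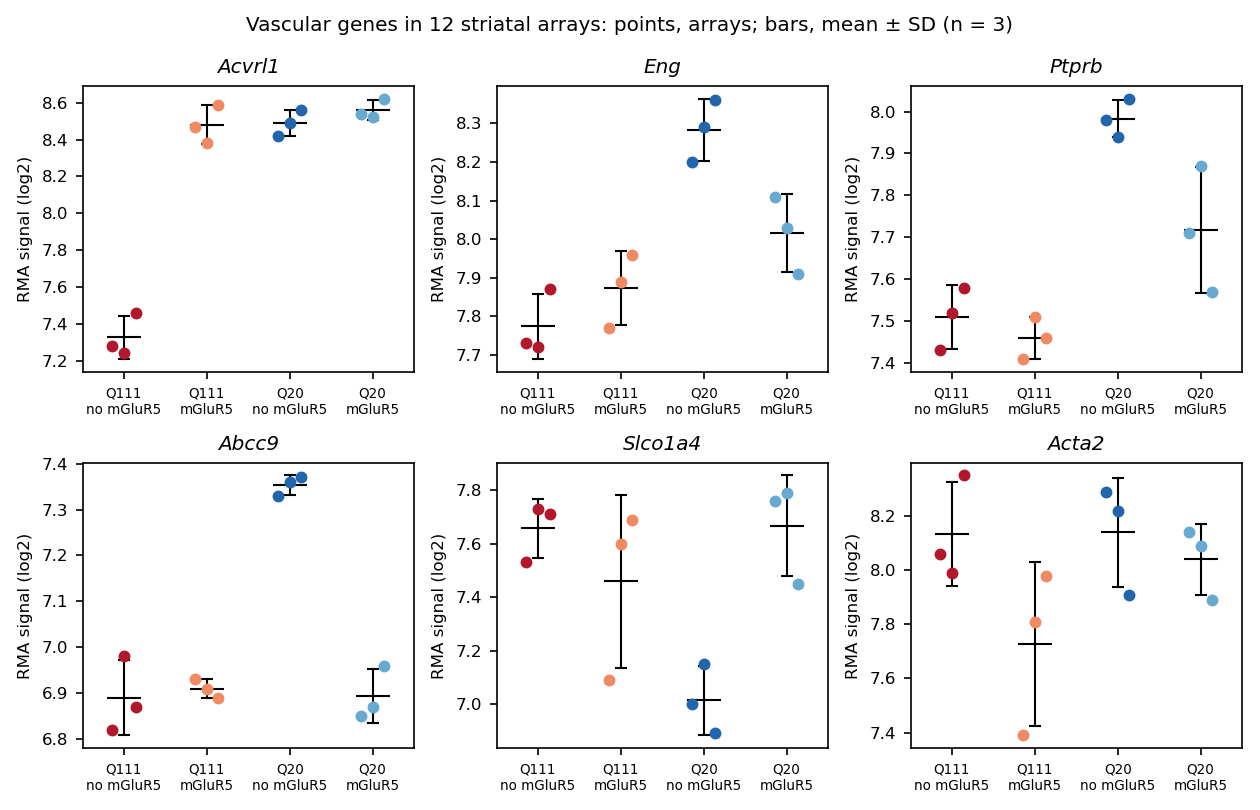
Log2 RMA signal of 6 members in each array, with the mean and SD of each group (n = 3). Acvrl1 is lower in Q111 mice without mGluR5 than in the other groups, and Abcc9 is higher in Q20 mice without mGluR5 than in the other groups. Slco1a4 is lowest on average in Q20 mice without mGluR5, and Acta2 groups overlap except between the Q111 groups.

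Ptprb encodes VE-PTP, a phosphatase that restrains Tie2 and acts on VE-cadherin junctions. Its signal was 7.43, 7.52 and 7.58 in Q111 mice without mGluR5, against 7.98, 7.94 and 8.03 in Q20 mice without mGluR5. With mGluR5 it was 7.41, 7.51 and 7.46 in Q111 mice, against 7.71, 7.87 and 7.57 in Q20 mice. The Q111 arrays lay below the Q20 arrays in both settings. Ptprb fell by 0.48 ± 0.09 with Q111 in mice without mGluR5 (limma adjusted p = 0.0217), a call lost on omission of any 1 of the 6 arrays compared (adjusted p up to 0.125). Its change with mGluR5 was -0.26 ± 0.09 (limma adjusted p = 0.468). Averaged over both genotypes the fall was 0.37 ± 0.07 (limma adjusted p = 0.0101), and this call held when any 1 array was omitted. None of its 5 tested neighbours on either side on chromosome 10 was called.

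The other junction and surface genes were Pecam1 and Cdh5, which encode the adhesion proteins CD31 and VE-cadherin, the tight junction genes Cldn5 and Ocln, the adhesion gene Esam, the endomucin gene Emcn, the membrane protein gene Itm2a, the clotting factor gene Vwf, the secreted regulator gene Egfl7 and the guidance receptor gene Robo4. None passed the test. All 11 genes of this class had negative values for Q111 in both comparisons, with medians of -0.28 without mGluR5 and -0.16 with it. Emcn had the largest value of the uncalled genes of the class without mGluR5, at -0.43 ± 0.12 (limma adjusted p = 0.141). Pecam1 had 6.77, 6.83 and 6.98 in Q111 mice without mGluR5, against 7.13, 7.29 and 7.16 in Q20 mice without it. Its changes were -0.34 ± 0.10 and -0.19 ± 0.10 without and with mGluR5, and the allele groups did not overlap in either. Cldn5, the main claudin of the barrier, had changes of -0.23 ± 0.17 and -0.24 ± 0.17, and it had the largest spread between arrays of a group among the members (SD 0.25). Vwf and Egfl7 had values near 0, at -0.03 ± 0.13 and -0.01 ± 0.11 without mGluR5. In this class 6 of 11 genes did not overlap between the allele groups without mGluR5, all lower in Q111, where 13% of all genes did so in this direction. With mGluR5 it was 2 of 11, where 5.3% of all genes did.

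The endothelial transcription factor genes were not called. For Q111 without mGluR5, Erg, an ETS factor gene, differed by -0.14 ± 0.15, Sox17 by -0.09 ± 0.15 and Sox18 by -0.14 ± 0.12. With mGluR5 the values were -0.08 ± 0.15, 0.06 ± 0.15 and -0.16 ± 0.12.

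The barrier transporters had values of both signs and none passed the test. Abcb1a, which encodes the drug efflux pump P-glycoprotein, had 6.98, 7.21 and 7.39 in Q111 mice without mGluR5, against 7.67, 7.52 and 7.78 in Q20 mice without it, a change of -0.46 ± 0.14 (limma adjusted p = 0.181). Slc2a1, the gene of the glucose transporter GLUT1, had a change of -0.29 ± 0.09, and Slco1c1, a thyroxine transporter gene, one of -0.33 ± 0.11. The allele groups did not overlap for Abcb1a and Slc2a1, and they overlapped for Slco1c1. Abcg2, a second efflux pump gene, differed by -0.10 ± 0.12, and Mfsd2a, which encodes a transporter of docosahexaenoic acid, by 0.02 ± 0.10. With mGluR5 the 7 transporter genes had changes between -0.21 and 0.09.

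Slco1a4, which encodes an organic anion transporter of the barrier, had a sign opposite to most endothelial genes in mice without mGluR5. It had 7.53, 7.73 and 7.71 in Q111 mice without mGluR5, against 7.0, 7.15 and 6.89 in Q20 mice without mGluR5. With mGluR5 it had 7.09, 7.60 and 7.69 in Q111 mice, against 7.76, 7.79 and 7.45 in Q20 mice. The Q20 mice without mGluR5 were low, as was 1 array of Q111 mice with mGluR5. Without mGluR5 the change for Q111 was 0.64 ± 0.14 with no overlap, and its limma adjusted p of 0.0528 missed the threshold. In Q20 mice the loss of mGluR5 gave -0.65 ± 0.14 (limma adjusted p = 0.0783), with the same arrays of Q20 mice without mGluR5 in both values. The first value passed the threshold on omission of any 1 array of the Q111 mice with mGluR5. The second passed the threshold on omission of replicate 1 or 2 of Q111 mice with mGluR5, at adjusted p as low as 0.0211. Both values also passed with the replicate block, with the interquartile range covariate, in fits on the compared groups and without both arrays at the ends of the first component, and the first also with an intensity trend. The interaction was 0.85 ± 0.20 (limma adjusted p = 0.136).

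Slc16a1, the gene of the lactate and ketone body transporter MCT1, had 8.92, 8.92 and 8.90 in Q111 mice without mGluR5, against 8.65, 8.55 and 8.55 in Q20 mice without it. With mGluR5 it had 8.46, 8.86 and 8.72 in Q111 mice, against 8.71, 8.49 and 8.56 in Q20 mice. The Q111 mice without mGluR5 stood above all other arrays with almost no spread of their own, yet the value of 0.33 ± 0.10 against Q20 did not pass (limma adjusted p = 0.221).

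Abcc9, the sulphonylurea receptor subunit of the pericyte potassium channel, was called among the 9 pericyte genes. It had 6.82, 6.98 and 6.87 in Q111 mice without mGluR5, against 7.33, 7.36 and 7.37 in Q20 mice without mGluR5. With mGluR5 it had 6.93, 6.91 and 6.89 in Q111 mice, against 6.85, 6.87 and 6.96 in Q20 mice. The Q20 mice without mGluR5 stood above the other 9 arrays, which lay together. Abcc9 fell by 0.46 ± 0.08 with Q111 in mice without mGluR5 (limma adjusted p = 0.0109) and rose by 0.46 ± 0.08 with loss of mGluR5 in Q20 mice (limma adjusted p = 0.0203), and both values rest on the same arrays of Q20 mice without mGluR5. The call for Q111 was lost on omission of any of 3 single arrays (adjusted p up to 0.0795). With mGluR5 the change for Q111 was 0.02 ± 0.08, and the interaction of -0.48 ± 0.12 had a limma adjusted p of 0.133. The call in Q20 mice was lost on omission of any 1 of the 6 arrays of the groups compared (adjusted p up to 0.107).

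Kcnj8, which encodes the pore of the same channel, is the next tested gene to Abcc9 on chromosome 6. Kcnj8 had 6.56, 6.31 and 6.21 in Q111 mice without mGluR5, against 6.60, 6.23 and 6.48 in Q20 mice without it, and the groups overlapped. Its change was -0.08 ± 0.14 for Q111 without mGluR5 and -0.03 ± 0.14 for loss of mGluR5 in Q20 mice. Slco1c1 and Slco1a4 lie on the same chromosome, at positions 789 and 790 in the order of its tested genes, and Kcnj8 and Abcc9 at 796 and 797. Of the 5 tested genes on either side of Abcc9, none was called for Q111 without mGluR5. For loss of mGluR5 in Q20 mice 1 was, C2cd5, a gene of insulin-stimulated glucose transport, at -0.53 ± 0.10 (limma adjusted p = 0.029). A part of founder strain alleles in these values was not tested.

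Rgs5, a regulator of G protein signalling and a common pericyte marker, had 9.01, 9.09 and 9.04 in Q111 mice without mGluR5, against 9.38, 9.33 and 9.53 in Q20 mice without mGluR5. With mGluR5 it had 9.02, 9.09 and 9.29 in Q111 mice, against 9.17, 9.21 and 8.99 in Q20 mice. The allele groups were apart without mGluR5 and overlapped with it, and neither change passed, at -0.37 ± 0.10 (limma adjusted p = 0.119) and 0.01 ± 0.10. Vtn, the vitronectin gene, had a change of -0.34 ± 0.11 without mGluR5 and -0.06 ± 0.11 with it. Pdgfrb, the receptor through which endothelium recruits pericytes, had -0.13 ± 0.09 and -0.10 ± 0.09. Notch3, a receptor of mural cells, had -0.02 ± 0.12 and -0.09 ± 0.12. Anpep, an aminopeptidase gene, had values of -0.06 ± 0.09 and -0.01 ± 0.09 for Q111 without and with mGluR5. Higd1b and Ndufa4l2, mitochondrial protein genes enriched in pericytes, had 0.00 ± 0.12 and -0.14 ± 0.12 without mGluR5, and 0.15 ± 0.12 and 0.08 ± 0.12 with it. The median of the 9 pericyte genes was -0.13 without mGluR5 and -0.01 with it.

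The 3 contractile genes of smooth muscle gave another order of groups. Acta2, smooth muscle actin, had 8.06, 7.99 and 8.35 in Q111 mice without mGluR5, against 7.39, 7.81 and 7.98 in Q111 mice with mGluR5. In Q20 mice it had 8.29, 8.22 and 7.91 without mGluR5, against 8.14, 8.09 and 7.89 with it. The Q111 mice with mGluR5 were low, with no overlap with Q111 mice without mGluR5. The change with loss of mGluR5 in Q111 mice was 0.41 ± 0.15 and did not pass (limma adjusted p = 0.753). Tagln, the actin-binding protein gene SM22, had 6.58, 6.55 and 6.91 in Q111 mice with mGluR5, against 7.01, 7.21 and 6.75 in Q20 mice with mGluR5. Those groups overlapped. Without mGluR5 it had 6.92, 6.80 and 7.09 in Q111 mice and 7.05, 7.06 and 6.98 in Q20 mice. Its changes for Q111 were -0.31 ± 0.13 with mGluR5 (limma adjusted p = 0.593) and -0.09 ± 0.13 without it. Myh11, smooth muscle myosin, had -0.17 ± 0.11 and 0.02 ± 0.11. Among 32 other mural and contractile genes, Mylk, the myosin light chain kinase gene, was higher by 0.47 ± 0.09 with loss of mGluR5 in Q111 mice (limma adjusted p = 0.0361). Of the 16721 genes tested, 19 were called higher there. The call of Mylk was not followed with arrays left out.

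The basement membrane genes Col4a1 and Col4a2, chains of type IV collagen, and Lama4, a laminin chain, had changes between -0.07 and 0.11 for Q111 without mGluR5 and between -0.06 and 0.06 with it, and none passed. Of 24 further basement membrane and receptor genes, Lamb1, a laminin chain, was lower in Q111, at -0.39 ± 0.07 averaged over mGluR5 genotypes (limma adjusted p = 0.0128). In that average 0.825% of all genes were called lower, and the call of Lamb1 was not followed with arrays left out.

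In the comparison of mice without and with mGluR5, 1 member was called in each Hdh genotype. In Q111 mice it was Acvrl1, where 0.161% of all genes were called lower, and the changes of the 43 members were negative for 21, against 47.4% of all genes, with a median of 0.02 that lay between -0.05 and 0.08 when single arrays were omitted. The lowest came on omission of replicate 2 of Q111 mice with mGluR5 and the highest on omission of replicate 3. In Q20 mice it was Abcc9, where 0.138% of all genes were called higher, and 31 of 43 changes were positive, against 57% of all genes, with a median of 0.10. All 11 junction and surface genes had positive values in Q20 mice, and among the uncalled members Rgs5 had 0.29 ± 0.10 (limma adjusted p = 0.508). In the interaction Acvrl1 was the member called, where 0.437% of all genes were. Averaged over Hdh alleles, Acvrl1 was the member called lower, at -0.61 ± 0.06 (limma adjusted p = 0.000256), where 0.167% of all genes were.

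**Figure D3:**
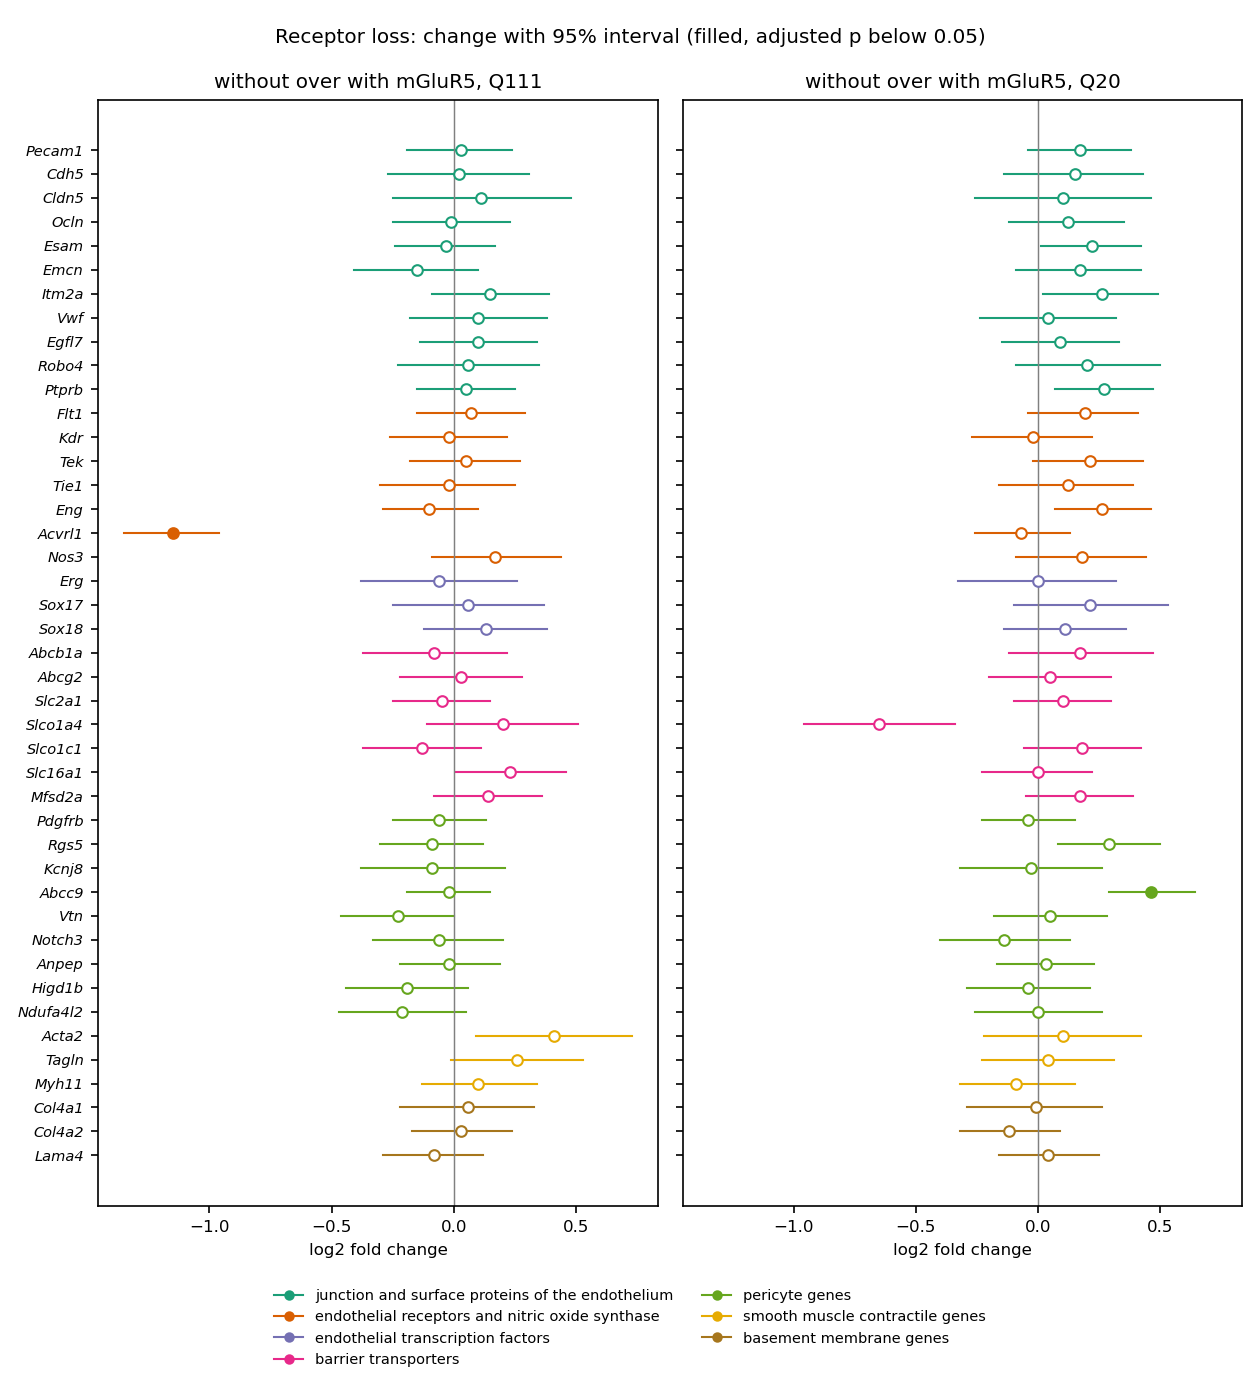
Log2 fold change of mice without over mice with mGluR5 for the 43 measured members, in Q111 mice (left) and Q20 mice (right), with 95% intervals of the limma fit. The filled points are Acvrl1 on the left and Abcc9 on the right.

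Seen over arrays, the group with the highest endothelial signal was the Q20 mice without mGluR5. The mean of the 28 endothelial and barrier genes lay between 7.51 and 7.67 in Q111 mice without mGluR5 and between 7.50 and 7.70 in Q111 mice with mGluR5. It lay between 7.77 and 7.86 in Q20 mice without mGluR5 and between 7.60 and 7.78 in Q20 mice with mGluR5. Without mGluR5 the Q111 arrays thus lay below the Q20 arrays, and with mGluR5 the groups overlapped. Leaving Acvrl1 out of the mean gave 7.52 to 7.68 in Q111 mice and 7.74 to 7.83 in Q20 mice without mGluR5. Of the 28 genes, 22 had their highest group mean in Q20 mice without mGluR5, which is 78.6%, against 35.4% of all genes. The lowest group mean fell in Q111 mice with mGluR5 for 13, which is 46.4%, against 28.3% of all genes. It fell in Q111 mice without mGluR5 for 11, which is 39.3%, against 25.7% of all genes. The 9 pericyte genes averaged 7.40 to 7.45 in Q111 mice without mGluR5, against 7.57 to 7.64 in Q20 mice without it. With mGluR5 they averaged 7.45 to 7.61 in Q111 mice and 7.49 to 7.56 in Q20 mice, and the groups overlapped.

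**Figure D4:**
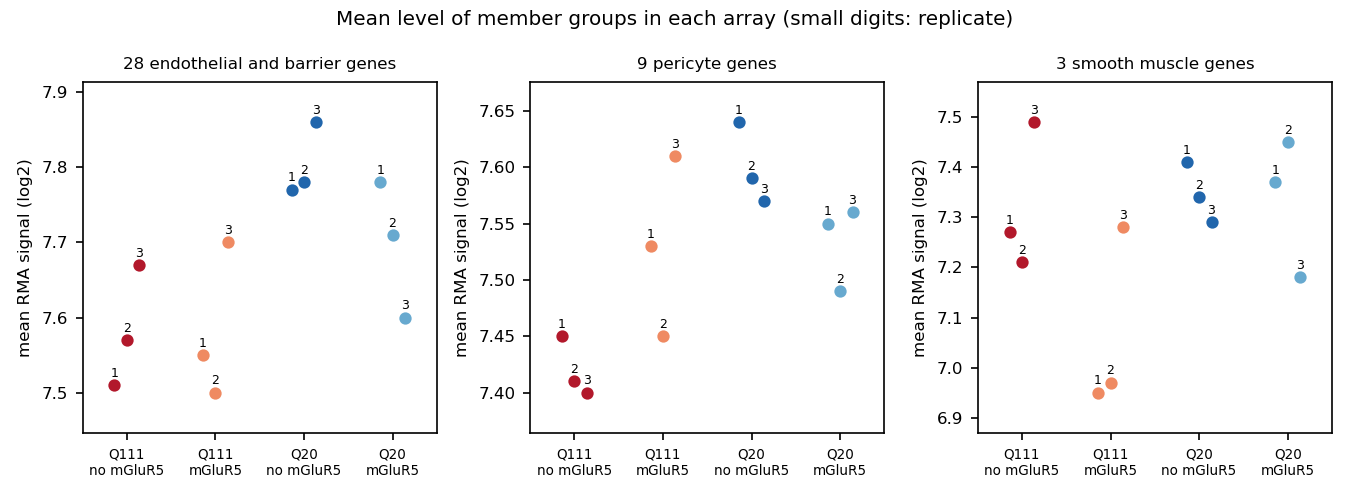
Mean log2 RMA signal of the endothelial and barrier, pericyte and smooth muscle genes in each array, with the replicate number above each point. Endothelial and pericyte means of Q111 mice without mGluR5 lie below those of Q20 mice without mGluR5, and with mGluR5 the allele groups overlap in both. The 2 lowest smooth muscle means are of Q111 mice with mGluR5.

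The spread of whole arrays moved with these means in part. In each of the 4 groups the array with the narrowest interquartile range had the highest endothelial mean. These were replicate 3 of the Q111 mice without mGluR5 (range 2.67, mean 7.67), replicate 3 of the Q111 group that has it (2.56, 7.70), replicate 3 of the Q20 mice without mGluR5 (2.72, 7.86) and replicate 1 of the Q20 group that has it (2.72, 7.78). Among the Q111 mice with mGluR5, replicate 2 had the widest range, 2.93, and the lowest mean, 7.50. In each of the other groups the array with the widest range did not have the lowest mean. Between groups the order was another: Q20 mice without mGluR5 had the higher means with ranges of 2.72 to 2.95, against 2.67 to 2.80 in Q111 mice without mGluR5. The part of this spread in the values was not tested beyond the covariate fit. With the interquartile range as a covariate, 12 members were called for Q111 without mGluR5, among 353 of all genes in place of 148, and 11 in the average over mGluR5 genotypes, among 488 in place of 221. Calls without mGluR5 also changed when 1 array was omitted, while the changes moved little. They ran from -0.51 to -0.44 for Ptprb, -0.55 to -0.47 for Eng and -0.51 to -0.43 for Abcc9. The count over all genes, 148 with every array, was 80, 85 and 84 without replicate 1, 2 or 3 of the Q111 mice without mGluR5. It was 74 without replicate 1 of the Q20 mice without mGluR5. Without replicate 1 of the Q111 mice without mGluR5 only Acvrl1 was called. Without replicate 2 of that group, or replicate 2 or 3 of the Q20 mice without mGluR5, Acvrl1 and Abcc9 were called. Without replicate 3 of the Q111 mice or replicate 1 of the Q20 mice without mGluR5, Eng and Acvrl1 were called.

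A wider list of endothelial genes was read beside the members. Of its 46 tested genes, 38 had a negative change for Q111 without mGluR5, against 56.7% of all genes, and 32 with it, against 54.1%. Called lower were 1 without mGluR5, where 0.544% of all genes were, and 3 in the average over mGluR5 genotypes, where 0.825% were. Fn1, the fibronectin gene, was lower in Q111, at -0.58 ± 0.11 without mGluR5 (limma adjusted p = 0.0153) and -0.40 ± 0.08 on average, and the adhesion receptor genes Adgrl4 and Adgrf5 were lower on average, at -0.58 ± 0.12 and -0.47 ± 0.10 (limma adjusted p = 0.0252 and 0.0373). Adgrf5 falls outside the rule for naming genes and was added after its value was seen. Of 16 leukocyte adhesion and activation genes, Ackr1, the atypical chemokine receptor gene of venules, was lower with Q111 in both comparisons, at -1.11 ± 0.10 without mGluR5 and -1.10 ± 0.10 with it, with limma adjusted p of 2.24e-05 and 2.54e-05. Cxcl12, a chemokine gene, was lower in Q111, at -0.43 ± 0.10 without mGluR5 (limma adjusted p = 0.0471). Of all genes, 0.544% were called lower for Q111 without mGluR5, and 46 of 16721 with it. The calls of Fn1, Adgrl4, Adgrf5, Ackr1 and Cxcl12 were not followed with arrays left out. None of 19 hypoxia-induced genes was called by limma in any comparison, with 2 lower at an unadjusted p below 0.05 for Q111 without mGluR5, where 6.33% of all genes were, and none with mGluR5, where 3.77% were.

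Markers of other cells were read on the same arrays. For Q111 without mGluR5, the median change was -0.13 over 14 of 15 microglia markers, -0.09 over 15 of 15 astrocyte markers, 0.10 over 14 of 15 oligodendrocyte markers, 0.00 over 19 of 20 perivascular fibroblast and meningeal markers, -0.05 over 11 of 15 choroid plexus markers and 0.00 over 7 of 15 blood cell markers. None of these markers was called there, and 10 of the 14 microglia markers had negative values. The choroid plexus markers ran from -1.49 to 0.16 there, with 6 negative and 5 positive. For loss of mGluR5 in Q20 mice they ran from -0.11 to 0.88. A part of dissection in these values was not tested. The microglia markers averaged 7.93 to 8.03 in Q111 mice without mGluR5, against 8.01 to 8.27 in Q20 mice without it. With mGluR5 they averaged 7.93 to 8.07 in Q111 mice, against 8.0 to 8.07 in Q20 mice. Oligodendrocyte markers averaged 10.18 to 10.25 in Q111 mice without mGluR5, against 10.03 to 10.25 in Q20 mice without it. Fibroblast markers averaged 7.34 to 7.47 in Q111 mice without mGluR5, against 7.41 to 7.43 in Q20 mice without it. Kcnj10, a potassium channel gene of astrocyte endfeet and of oligodendrocytes, was called higher in Q111 averaged over mGluR5 genotypes, at 0.35 ± 0.06 (limma adjusted p = 0.0111). In that average 83 of 16721 genes were called higher. The part of cell composition in the values of the vascular genes was not tested.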

How the data were processed

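Per the labels, total RNA of striatum was isolated with Trizol and biotin-labelled single-strand cDNA was hybridised to Affymetrix whole-transcript arrays. The deposited values are log2 probe set signals made by the authors with RMA in Partek, per the submitters' processing notes, and the series text names Partek Genomics Suite 6.5 with criteria of an ANOVA p below 0.05 and a 1.5-fold change. A genome build for the arrays is not given in the sources used here. Of 35556 probe sets, 21789 had 1 gene symbol, 1621 several and 12146 none in the platform annotation, and symbols were updated through RefSeq on GRCm38.p6 (19 genes had no match there), which was also used for chromosomes, gene order and promoters.

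Each of 19938 genes was taken from its single-symbol probe set with the highest mean, and 16721 genes above their array's 25th percentile in at least 3 arrays were tested. limma 3.58.1 in R 4.3.3 fitted 1 mean per group over all 12 arrays (8 residual degrees of freedom, prior 6.88), with 7 contrasts, two-sided tests and Benjamini-Hochberg adjustment over the whole table, with calls at adjusted p below 0.05. Errors of changes are standard errors, and the script was tested on simulated data. No pair of arrays held identical values. The number of arrays limits the precision. Values in every array are given for members called in any contrast and for the 3 with the smallest p in each of the 4 simple contrasts, and at most 2 called genes of each other list and contrast are named. Values of Abcb1a, Kcnj8 and Pecam1 by array were added after they were seen. The members and the 13 lists of other genes were chosen with earlier results of these data known. Alternatives covered the submitters' criteria, an intensity trend, the replicate number as a block, the interquartile range as a covariate, quantile normalization, no filter, the mean of probe sets, fits on the compared groups and leaving out each array. Plots were drawn with matplotlib 3.10.9.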

Additional observations from a re-analysis of the deposited data

Results flagged for a closer look

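Acvrl1 was singled out because its change with the Q111 allele differed between the mGluR5 genotypes by a direct test, with an interaction of -1.08 on the log2 scale. It was lower with Q111 in mice without mGluR5 and overlapped between the alleles in mice with mGluR5.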

How the results depend on the processing

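Directions were followed for members in the contrasts where they were called or among the 3 with the smallest p of a simple contrast. Each of these values kept its direction in every alternative run, but in many runs it could not change. The submitters' criteria, the intensity trend, the replicate block and fits on the compared groups leave the changes between groups as they are. So do no filter and the mean of probe sets, as all 43 members passed the filter and had 1 single-symbol probe set. Omission of an array outside the groups compared also leaves a change as it is. The direction of the other values in the text, those of other lists among them, was not followed. The medians of the member changes moved by less than the spread between arrays, an SD of 0.11, in every alternative. That SD exceeds the size of medians such as -0.08 for Q111 with mGluR5 and 0.10 for loss in Q20. A smaller shift can thus still be large beside the median. The median for loss in Q111, 0.02, changed sign on omission of single arrays. It was -0.05 without replicate 2 of the Q111 group that has mGluR5 and -0.03 without replicate 3 of the Q111 group that lacks it. Of the followed values over all alternatives, 334 kept their direction and their side of the threshold, 32 lost their call and 7 gained one. These counts include the runs in which the direction could not change. The replicate numbers were not taken to pair arrays. The correlations of same-numbered arrays ran from -0.04 to 0.54, but for replicate 2 they were 0.54, 0.41, 0.49 and 0.44 in the simple contrasts. Replicate 2 also had the widest interquartile range of every group, at 2.80, 2.93, 2.95 and 2.88. A part shared by arrays of the same number was not tested beyond the replicate block. With the replicate block the counts over all genes were 204 for Q111 with mGluR5, 343 for Q111 without it, 103 for loss in Q111, 129 for loss in Q20, 487 for the average Q111 effect and 79 for the average loss, and member counts were 2 for loss in Q20, 2 for the interaction and 9 for the average Q111 effect. With the interquartile range covariate the counts over all genes were 266, 353, 150 and 213 for the simple contrasts in that order, 153 for the interaction, 488 for the average Q111 effect and 170 for the average loss. Member counts were then 12 for Q111 without mGluR5, 2 each for loss in Q20, the interaction and the average loss, and 11 for the average Q111 effect. Without both arrays that end the first principal component (replicates 2 and 3 among Q111 mice with mGluR5, an alternative chosen after seeing the data, which left 1 array in that group, assumed to vary like the others), the counts over all genes were 36 for Q111 with mGluR5, 230 without it, 19 for loss in Q111, 89 for loss in Q20, 33 for the interaction, 132 for the average Q111 effect and 30 for the average loss, with 2 members for loss in Q20 and 2 for the interaction. The submitters' criteria gave 165 genes for the interaction, 51 for the average Q111 effect and 17 for the average loss, and 2 members for Q111 without mGluR5, 2 for the interaction and 1 for the average Q111 effect. Fits on the compared groups gave 47 genes for Q111 with mGluR5 and 2 members for loss in Q20. The intensity trend gave 84 genes and quantile normalization 76 for loss in Q20, and quantile normalization gave 5 members for the average Q111 effect. The cause of these differences was not tested. A member count given here without its count over all genes cannot be read as a gain among members. When single arrays were left out, the counts over all genes ran from 44 to 128 for Q111 with mGluR5, 74 to 232 without it, 28 to 52 for loss in Q111, 25 to 97 for loss in Q20, 34 to 69 for the interaction, 119 to 511 for the average Q111 effect and 29 to 60 for the average loss. Member counts ran from 0 to 0, 1 to 5, 1 to 1, 0 to 2, 1 to 1, 2 to 5 and 1 to 1, and member medians from -0.16 to -0.05, -0.22 to -0.12, -0.05 to 0.08, 0.06 to 0.14, -0.14 to -0.03, -0.17 to -0.11 and 0.03 to 0.11, in the same order. All 43 members lay above the filter on low signal in all 12 arrays. With 3 arrays a group, small changes may be missed.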
